A study of Bos taurus with 12 samples.

Results

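The type I interferon genes of the chromosome 8 cluster of cattle were described here through 137 of the 216,990 cytosines in the deposited table. A cytosine was taken when the table named 1 of 8 genes as its nearest gene and placed it on chromosome 8 (125 sites) or on an unplaced scaffold (12 sites). In the order of chromosome 8, the genes were IFNE (30 sites), IFNT3 (27), IFNT2 (10), IFN-tau-c1 (20), LOC523244 (21), LOC100299481 (15) and LOC781948 (2). IFNT, with 12 sites, lay on the scaffold. The table itself names all 8 as interferons: IFNE as interferon epsilon, IFNT3, IFNT2, IFN-tau-c1 and IFNT as forms of interferon tau, LOC523244 as an alpha-B-like interferon, and LOC100299481 and LOC781948 as interferon omega-1. By gene ID, 7 of the 8 were found as protein-coding genes in the RefSeq table of ARS-UCD2.0, IFNT being the exception.

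The DNA came from whole blood of 12 dairy cows of 1 farm, aged 3 to 8 years. The subfertile group was 6 cows that left the herd within a year because of reproductive complications not recognised when blood was drawn. The fertile group was 6 cows that stayed, with no fertility problem. No treatment, genetic modification or sampling batch is given for either group, and only the herd's age range is known. In the table, the columns of the cows labelled subfertile begin with F and those of the cows labelled fertile begin with R. The labels were followed, and every direction below would turn if the letters were meant otherwise. A value gives, for 1 cow and 1 cytosine, how many of 100 calls were methylated, and the number of reads behind it is unknown. Blood is a mixture of cells with 2 copies of each autosomal gene, so an intermediate level in a share of cells, on 1 of the copies of a chromosome, or in 1 of several similar genes whose reads fall together cannot be told apart.

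Type I interferons are secreted cytokines that all bind the receptor made of IFNAR1 and IFNAR2 and switch on antiviral genes through STAT proteins. Most of their genes are short and without introns, and in ruminants the alpha, omega and tau families have multiplied into many similar copies. Interferon tau is made by the trophoblast of the early embryo and tells the mother to maintain the corpus luteum, while interferon epsilon is produced by the lining of the reproductive tract. Methylated promoters usually accompany silent genes. No RNA was measured here.

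The deposited table holds only sites that differ between these groups, and the 137 have an absolute deposited difference of 25.1 to 75.9 percentage points (the threshold seen over the whole table is 25) and a q-value of at most 0.00883 in the authors' deposited table. Sites below that threshold are not analysed here. The genes, too, were chosen because earlier results for these cows were known. The difference between the groups is therefore given as a description, without a test. Levels are means ± SD over the 6 cows of a group, in percent methylated, and fewer cows are stated where a value is missing.

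Over the 137 sites, blood DNA of the subfertile cows was methylated at about double the level of the fertile cows. The subfertile cows averaged 79.5% at the lowest, 83.1% at the median and 87.2% at the highest. The fertile cows averaged 39.9%, 42.3% and 42.6% in the same order. The group means were 83.5 ± 2.54% and 42.0 ± 1.02%, and the lowest subfertile cow stood far above the highest fertile cow. At 132 of the sites the authors' deposited table gives a higher level in subfertile cows, against 52.1% of all its sites. At 97 sites (70.8%) every subfertile cow with a value lay above every fertile cow, against 1.94% of all deposited sites and 1.9% of all but these 137. At no site did all fertile cows lie above all subfertile cows (1.16% of all deposited sites). Since the sites were chosen on this contrast, these shares are read as a description only. The shares of all deposited sites, and 1.9% of all deposited promoter sites, are the background for the counts of each gene below.

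**Figure D1:**
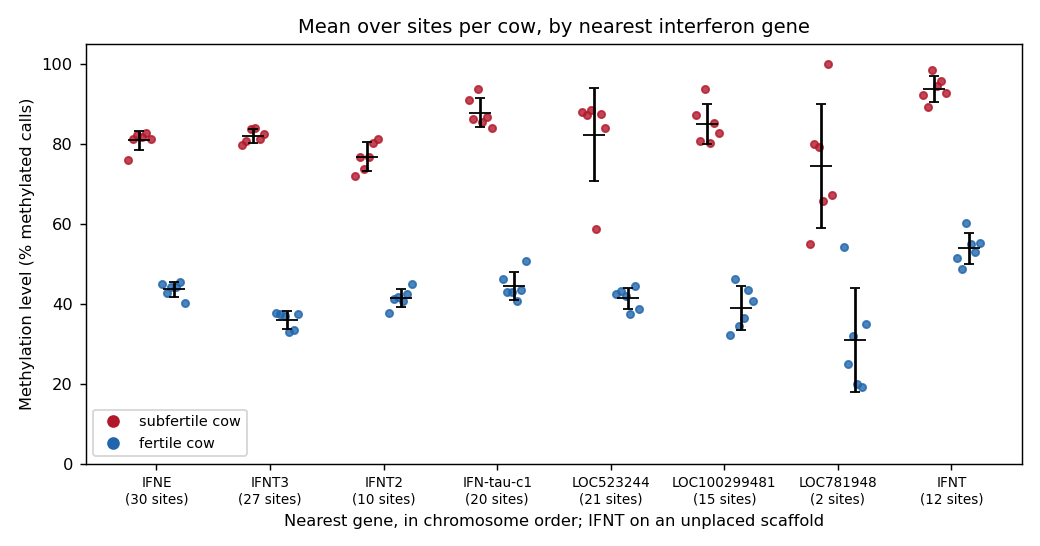
Mean methylation level (percent methylated calls, y axis) over the sites nearest to each of the 8 interferon genes (x axis), 1 point per cow, with group mean and SD as bars. The subfertile cows lie above the fertile cows at all 8 genes, with subfertile cow 4 at 58.7% standing apart at LOC523244 and wide scatter at LOC781948, which has 2 sites.

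The levels were of 1 kind at most sites: high in subfertile cows and intermediate in fertile cows. Among the 132 sites with a higher subfertile level, 106 had a subfertile mean of at least 80%, and 100 had a fertile mean between 30 and 60%. Single values showed the same. In fertile cows 539 of 778 values (69.3%) lay between 30 and 70%, 28 were 0 and none was 100%. In subfertile cows 601 of 776 values (77.4%) were at least 80%, and 247 (31.8%) were 100%. Over all deposited sites with a higher subfertile level, 36.1% of fertile values lay between 30 and 70%, 32.9% were 0 and 7.66% were 100%. Of the subfertile values at those sites, 56.2% were at least 80% and 27.7% were 100%, the latter close to the share at the interferon sites.

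Cows of the same group also lay close together. The median SD within a group was 11.2 percentage points over the interferon sites and 27.3 over all deposited sites. At 25 of the 137 sites (18.2%) at least 1 cow was under 10% and another over 80%, against 69.9% of all deposited sites. The fertile cows were more alike in their means over all sites (SD 1.02) than the subfertile cows (SD 2.54), and without the 21 sites of LOC523244 the subfertile SD was 1.83. At single sites the order was the reverse, with a median SD of 12.5 points in fertile and 9.07 points in subfertile cows. Over the 137 sites 30.6% of subfertile values were 100%, the top of the scale, against 0.744% of fertile values. The part of this limit in the SDs was not tested.

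**Figure D2:**
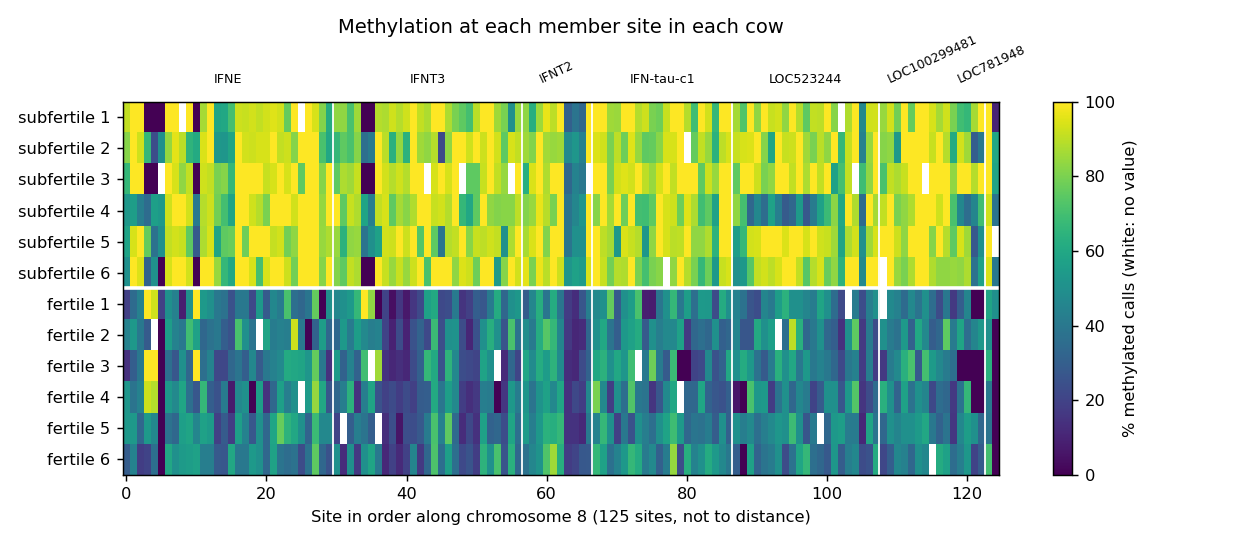
Percent methylated calls (colour) at the 125 interferon sites of chromosome 8, in order along the chromosome (x axis, not to distance), in each of the 12 cows (y axis), with white vertical lines between nearest genes. The upper 6 rows, the subfertile cows, are mostly above 80% and the lower 6 rows, the fertile cows, mostly between 30 and 70%, with dark breaks in subfertile cows 1 and 3 near IFNE and IFNT3 and in subfertile cow 4 near LOC523244.

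The sites ran from position 22,516,770 to 22,827,773 of chromosome 8 in the build ARS-UCD1.2, a span of 311 kb. By the table's annotation, 33 lay within 3 kb of a transcription start and are called promoter sites, 100 were distal intergenic and 4 lay in intron 2 of another gene model, ENSBTAG00000052839, beside LOC100299481. The annotation counts as promoter also what lies just downstream of a start. Of the 33 promoter sites 12 lay upstream of the start, 12 inside the gene and 9 past its end. The sites inside genes belonged to IFNT3 (7), LOC100299481 (4) and IFN-tau-c1 (1). IFNT2 had no promoter site, its nearest deposited site lying 7,661 bases from the start.

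Of the interferon tau genes, whose product signals pregnancy in ruminants, IFNT3 held the site with the largest deposited difference of the set. IFNT3 (ENSBTAG00000050661, chromosome 8, 22,575,915 to 22,583,545, minus strand) averaged 82.0 ± 1.70% in subfertile and 36.0 ± 2.22% in fertile cows over its 27 sites. Its 7 promoter sites, all inside the annotated gene, ranged per cow from 81.5% (median 90.5%) to 94% in subfertile cows. In fertile cows they ranged from 20.2% (median 22.7%) to 24.4%. All 7 separated the groups without overlap, against 1.9% of all deposited promoter sites, and the fertile cows lay close together.

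That difference, 75.9 points, lay at position 22,580,721 on the plus strand, 2,824 bases downstream of the start. There the subfertile cows had 84.2% (lowest), 90.3% (median) and 100% (highest), and the fertile cows 5.71%, 14.8% and 23.1%. The neighbouring CpG, 10 bases away, had similar values in each cow. On the plus strand 1 of 12 cows had equal values at both and the largest difference was 7.62 points, and on the minus strand 8 of 12 cows had equal values and the largest difference was 7.35 points. Not all close neighbours were so alike: the IFNT sites at 19,957 and 19,973, both on the minus strand, differed by up to 48.5 points within a cow.

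The smallest difference of IFNT3 lay on the other side of its start, at 22,586,805 on the minus strand, with 75, 92.9 and 100% in subfertile cows and 60.7, 64.4 and 72% in fertile cows. The fertile level was 14.7 ± 5.93% at the first of these sites and 65.6 ± 5.46% at the second, which lies outside the gene. The subfertile level was 90.7 ± 5.55% and 91.6 ± 9.28%. Since these are the sites of largest and smallest difference, this pattern follows in part from how they were picked.

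IFNT2 (ENSBTAG00000053027, chromosome 8, 22,608,434 to 22,609,746, minus strand) had only distal sites, which averaged 76.8 ± 3.59% in subfertile and 41.4 ± 2.36% in fertile cows. At 9 of its 10 sites the groups did not overlap, against 1.94% of all deposited sites with subfertile cows higher. Its largest difference was at 22,621,328, where 5 subfertile cows had 93.8% (lowest) to 100% (median and highest) and the fertile cows had 27.8, 36.7 and 46.7%. Its smallest was at 22,618,109, where both groups were low: 30.8, 38.7 and 52.6% in subfertile cows, and 13.2, 15.7 and 17.9% in fertile cows.

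That site and the next CpGs at 22,618,121 and 22,618,130, 8,363 to 8,384 bases upstream of the start, averaged 44.7 ± 7.18% in subfertile and 17.0 ± 3.34% in fertile cows. No subfertile cow had a mean over these sites above 54.9%, yet the groups were still apart at all 3. They were grouped as the IFNT2 sites with a subfertile mean under 70%. Such lower levels were found at few sites: 14 of the 132 sites with a higher subfertile level had a subfertile mean under 70%, and 7 of these 14 separated the groups.

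IFN-tau-c1 (ENSBTAG00000053469, chromosome 8, 22,633,306 to 22,633,893, minus strand) averaged 87.8 ± 3.69% and 44.5 ± 3.54% over 20 sites, of which 15 separated the groups. Its 3 promoter sites all did, with 74.8, 84.4 and 89.1% in subfertile cows and 29.6, 40.3 and 52.0% in fertile cows as lowest, median and highest. The largest difference was at the distal site 22,629,856, with 77.8, 100 and 100% against 0, 40 and 57.1% in 5 fertile cows. At the smallest, at 22,628,688, fertile cow 6 reached 84.2% and passed the lowest subfertile cow at 83.3%.

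IFNT (ENSBTAG00000048549, positions 13,467 to 14,640 of the scaffold, minus strand) had the highest levels of both groups, 93.8 ± 3.25% and 53.9 ± 3.95% over 12 sites, 10 of them without overlap. At position 19,972, its largest difference, 5 subfertile cows had 83.3, 100 and 100% and the fertile cows 33.3, 42.3 and 58.3%. At position 24,774, its smallest, the subfertile cows had 90, 100 and 100% and the fertile cows 51.7, 68.5 and 87.5%. Its single promoter site, 2,185 bases upstream, overlapped between the groups, with 50 to 100% in subfertile and 0 to 77.8% in fertile cows.

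IFNE (ENSBTAG00000039069, chromosome 8, 22,530,903 to 22,531,484, plus strand), which encodes interferon epsilon, averaged 80.9 ± 2.43% and 43.6 ± 1.89% over 30 sites, 21 without overlap. Its largest difference was at 22,548,559, 17,656 bases downstream, where the subfertile cows had 92.3, 93.5 and 100% and the fertile cows 0, 32.9 and 53.8%. Its smallest was at 22,516,770, the first site of the region, where the groups overlapped (50, 62.3 and 90.9% against 14.3, 36.9 and 53.3%). At position 22,551,512 all 6 subfertile cows had 100% while the fertile cows had 0, 38.2 and 55%. This last site was picked after its values were seen.

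At 5 sites, 3 near IFNE and 2 near IFNT3, the authors' deposited table gives a lower level in subfertile cows. They are both strands of a CpG 509 bases upstream of IFNE, 1 site 7,384 bases downstream of IFNE, and both strands of a CpG 21,897 bases downstream of the start of IFNT3. Over the 5 sites the subfertile cows had 0, 31.1 and 46.8% and the fertile cows 42.8, 53.2 and 95.2%, and at none did the groups stand apart. Subfertile cows 1 and 3 were listed at 0 at all 5, and fertile cow 1 had 95.2% and fertile cow 3 had 92.3% as means over them.

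The other 8 cows were mostly intermediate at these sites, except that subfertile cow 6 was at 0 at the last 3 and fertile cow 4 was at 88.9 to 92.3% at the first 2. At the other 132 sites subfertile cows 1 and 3 had 86.1 and 90.7% on average, and fertile cows 1 and 3 had 40.1 and 40.8%. The cows at the ends of the scale at the 5 sites therefore lay within their groups elsewhere.

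Among the alpha- and omega-like copies, LOC100299481 (ENSBTAG00000054206, chromosome 8, 22,674,328 to 22,674,915, minus strand) averaged 85.0 ± 5.12% and 39.0 ± 5.42% over 15 sites. Its 8 promoter sites, 4 of them inside the gene, all separated the groups, with 88.4, 91.6 and 96.4% in subfertile and 35.7, 44.4 and 51.5% in fertile cows. The largest difference, 59.2 points in the deposited table, was at 22,674,555, 360 bases downstream of the start (81.8, 92.9 and 100% against 21.7, 35.7 and 54.5% in 5 fertile cows). Its 4 intron sites were unlike the promoter: none separated the groups, and the cows spread from 49.1 to 97.2% and from 0 to 48.1%. Fertile cow 3 was listed at 0 at all 4, and its smallest difference, at 22,681,309, lay there.

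LOC523244 (ENSBTAG00000025928, chromosome 8, 22,650,137 to 22,650,706, minus strand), an alpha-B-like interferon gene, averaged 82.3 ± 11.7% and 41.4 ± 2.67% over 21 sites, of which 9 separated the groups. Its wide subfertile SD came with a single cow. Subfertile cow 4 averaged 58.7% there, and the others 84.0 to 88.5%. From 22,645,528 to 22,652,454, a stretch of 6,927 bases with 11 sites around the gene, this cow had 41.7%, between the fertile cows (41.3 to 50.7%) and below the other subfertile cows (88.6 to 97.1%). The stretch was chosen after its values were seen, as the longest run of sites with this cow under 60%.

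At 10 of these 11 sites subfertile cow 4 lay at or below the highest fertile cow, and without it the groups did not overlap at any of the 11. At the gene's largest difference, at 22,661,804 and outside the stretch, it had 86.7% against 17.6, 36.7 and 61.5% in fertile cows. The same cow also stood at 49.2% at the CpG at 22,528,572 near IFNE, where the other subfertile cows had 96.4 to 100% and the fertile cows 31.3 to 46.7%. Leaving this cow out, 110 of the 137 sites separated the groups, against 2.84% of all deposited sites without that cow.

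**Figure D3:**
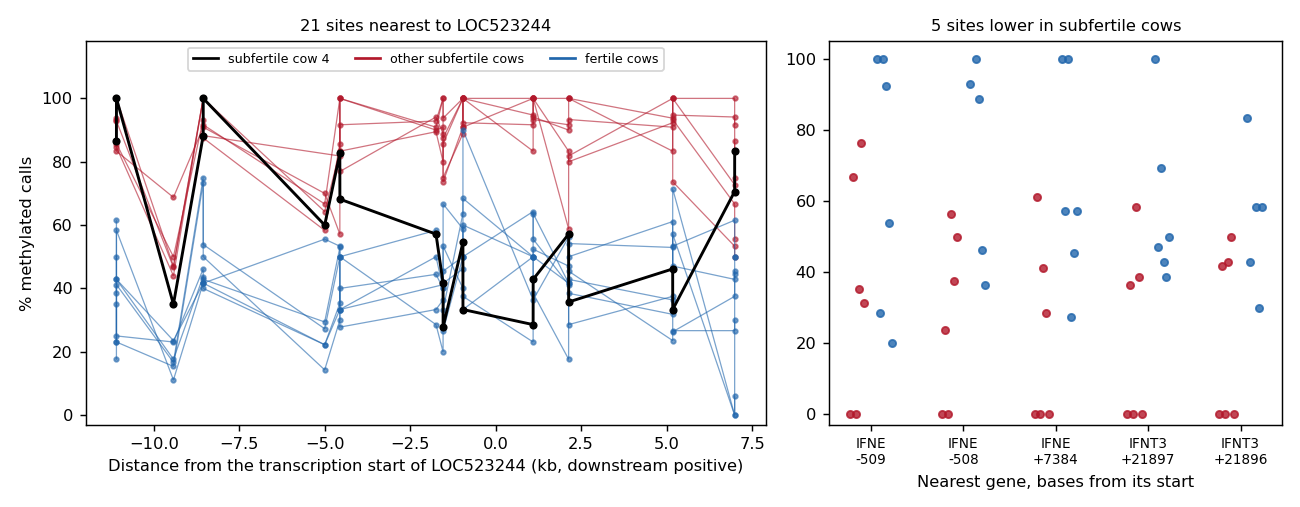
Left, percent methylated calls (y axis) at the 21 sites nearest to LOC523244 by distance from its transcription start (x axis, kb), 1 line per cow with subfertile cow 4 in black. Right, the 5 sites with a lower subfertile level, 1 point per cow (red subfertile, blue fertile), labelled by nearest gene and bases from its start. In the middle of the left panel the black line runs among the fertile cows, and in the right panel at least 2 subfertile cows sit at 0 at every site.

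LOC781948 (ENSBTAG00000054099, chromosome 8, 22,823,867 to 22,824,454, minus strand), an omega interferon gene, had 2 sites that differed from each other. At 22,825,760, in the promoter, the subfertile cows had 92.9, 100 and 100% and the fertile cows 38.5, 54.2 and 70%, without overlap. At 22,827,773, a distal site, 5 subfertile cows had 10, 40 and 60%, while fertile cow 1 had 50% and the other fertile cows were listed at 0.

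Promoter sites were set against distal sites within each cow, to ask whether the level went with position in the locus, apart from the group. Over the 32 promoter and 89 distal sites of chromosome 8, promoter levels were 0.64 ± 5.29 points above distal levels (SD over 12 cows), higher in 7 of 12 cows (exact two-sided sign-flip permutation test, p = 0.683). Keeping only the plus strand of a CpG where both strands were deposited, the difference was 4.03 points (exact permutation p = 0.0361), so the call depends on that choice. Subfertile cows averaged 84.4 ± 7.21% at promoter and 82.4 ± 1.44% at distal sites. Fertile cows averaged 40.6 ± 2.40% and 41.4 ± 1.2%.

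Behind this small mean the genes differed. In IFNT3 the promoter stood below the distal sites in all 6 fertile cows (22.2 ± 1.64% against 41.0 ± 3.21%) and above them in all 6 subfertile cows (89.6 ± 4.53% against 79.3 ± 2.41%). Both have an unadjusted exact permutation p of 0.0312, the smallest that 6 cows allow. Since sites were chosen on the group contrast, neither value is read as support for the crossing. Over all 12 cows these opposite differences gave -4.25 points (exact permutation p = 0.367, adjusted p = 0.448 over 6 tests of this kind). The crossing itself belongs to the contrast on which sites were chosen and was not tested.

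In IFN-tau-c1 promoter minus distal was -5.10 ± 5.53 points, with the promoter higher in 3 of 12 cows (exact permutation p = 0.00635, adjusted p = 0.0381). The promoter was lower in all 6 subfertile cows, but higher in 3 of 6 fertile cows (-4.40 ± 7.25 points). This gene has only 3 promoter sites, and its sites, too, were chosen on the group contrast, so these p-values are read as a description. In IFNE the promoter, with 2 of its 4 sites lower in subfertile cows, was below the distal sites in all 6 subfertile cows (60.7 ± 13.0% against 84.1 ± 2.65%) and above them in 4 of 6 fertile cows. LOC523244 and LOC100299481 had promoters 5.17 ± 12.4 and 3.56 ± 10.5 points above distal sites, in 9 and 7 of 12 cows (exact permutation adjusted p = 0.448 for both).

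**Figure D4:**
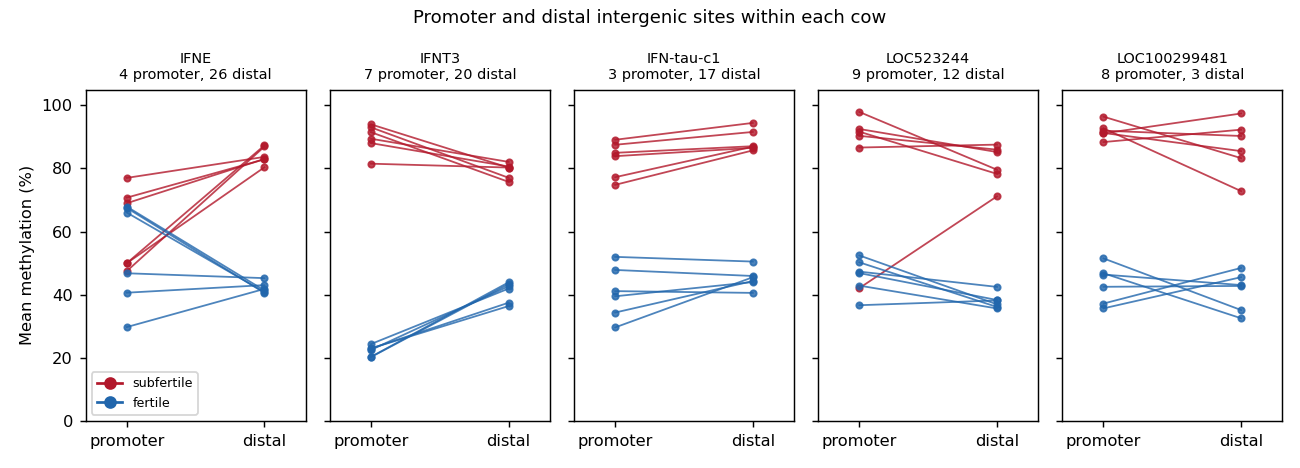
Mean methylation (percent, y axis) over promoter and distal intergenic sites in each cow, joined by a line, for the 5 genes with at least 3 of each (red subfertile, blue fertile). In IFNT3 all blue lines rise from about 22% and all red lines fall, and in LOC523244 1 red line starts at 42.1%, subfertile cow 4.

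Copies were compared with each other within cows for the 7 genes with at least 3 sites, which gives 21 pairs. The sites of 2 genes are not matched positions, so these are differences between the deposited sites. IFNT was above each of the other 6 in all 12 cows, the difference from IFNT running from -7.68 ± 4.61 points for IFN-tau-c1 to -14.8 ± 4.81 points for IFNT3 (exact sign-flip permutation p = 0.000488, the smallest 12 cows allow, and adjusted p = 0.00128 for each). Relative to IFN-tau-c1, IFNT3 stood at -7.16 ± 3.63 points and IFNT2 at -7.04 ± 6.66 points, lower in all 12 cows (exact permutation adjusted p = 0.00128 for both). IFN-tau-c1 was also above LOC100299481 by 4.18 ± 4.88 points, in 9 of 12 cows (exact permutation adjusted p = 0.0239), and IFNE was above IFNT2 by 3.14 ± 3.40 points, in 10 of 12 cows (exact permutation adjusted p = 0.0256).

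The other 11 pairs did not pass at an adjusted p of 0.05. By level over all cows IFNT came first and IFN-tau-c1 next. IFN-tau-c1 did not differ from IFNE or LOC523244 beyond the spread of the cows after adjustment (exact permutation adjusted p = 0.0624 and 0.0559), and among the remaining 5 genes only IFNE and IFNT2 did. IFNE minus LOC523244 was 0.41 ± 8.70 points, and LOC523244 minus LOC100299481 was -0.12 ± 8.07 points. Within 1 group of 6 cows no pair passed after adjustment over 21 pairs, where the smallest unadjusted p possible is 0.0312. Copies of such gene families can be similar in sequence, so reads may have been placed on the wrong one. No sequence was compared here, and only 12 of the 137 sites lay inside a gene. The part of misplaced reads in any level was not tested.

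A CpG can be read on both strands. The 137 sites formed 86 CpGs, of which 51 had both strands deposited, and all 51 had the same direction on both. Each deposited strand had passed the threshold of 25 points in these cows, so the shared direction follows in large part from that filter. Within a cow the strands differed by a median of 10 points over 590 pairs of values, and by 26.2 points or less in 90% of them. The plus strand was 0.57 points above the minus strand on average. Both strands separated the groups at 31 CpGs, 1 strand at 11 and neither at 9. Differences of this size between strands of the same CpG are the nearest measure of the precision of a single value that the table offers. They cover only CpGs where both strands passed the filter, and the 35 CpGs with 1 strand could not be compared.

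Around these genes, 135 other sites of chromosome 8 lay between 22 and 23 Mb. In these, 35 (25.9%) separated the groups with subfertile cows higher, 72.6% were higher in subfertile cows, and the median SD within a group was 21.2 points, against 70.8%, 96.4% and 11.2 points for the interferon sites. No test of this difference was made, since both sets were selected on the contrast. Among them were 22 sites nearest to LOC515485 (11), LOC100335490 (5), LOC618985 (4) and LOC618947 (2), 4 further genes that the table calls alpha- or omega-like interferons, which were noted after their values were seen. LOC618985 had 93.9% against 44.1%, and LOC618947 96.1% against 49.8%, as group means. LOC515485 had 71.0% against 29.7% and LOC100335490 40.2% against 23.8%.

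Among other type I interferon symbols, IFNK, the keratinocyte interferon, had 64 sites from 16,768,670 to 16,864,797, with 64.3 ± 12.5% in subfertile and 42.2 ± 9.28% in fertile cows. Of these, 45 had the higher level in subfertile cows and 19 in fertile cows. Without overlap were 6 of the former and 1 of the latter (over all deposited sites, 1.94% and 1.16%). IFNB1, which encodes interferon beta, had 3 sites (50.5 ± 21.2% against 37.5 ± 16.8%), none of them without overlap.

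The genes most like the interferon cluster in level were sought among 8,166 others with at least 3 sites and a value in all 12 cows, by the mean absolute difference over the cows. Nearest were WDR11 on chromosome 26 (6.92 points; 85.0 ± 4.64% against 45.9 ± 17.5% over 20 sites), NDST3 on chromosome 6 (7.13 points; 73.4 ± 13.2% against 44.0 ± 5.20% over 75 sites) and LOC112447915, a small nucleolar RNA gene on chromosome 8 (7.13 points; 72.8 ± 16.0% against 44.8 ± 3.01% over 51 sites). MTDH (7.25 points) and MB21D2 (7.46 points) followed. In each of the 5 at least 1 group had an SD of 13 to 18 points, and at most 9 of a gene's sites separated the groups.

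Genes through which type I interferons are induced and act were taken from a list of 69, of which 41 had a value in all 12 cows. Gene means over all sites with that nearest gene were compared by limma, adjusted over 12,002 genes. All of these sites were deposited as differing between the same groups. The p-values are therefore not independent of the choice of sites and are read as a description only. None of the 41 passed at an adjusted p of 0.05 (smallest limma adjusted p = 0.0557), while 21 (51.2%) had an unadjusted p under 0.05, 11 higher and 10 lower in subfertile cows. Over all genes 39.7% had such a p, and after adjustment limma called 1.06% higher and 0.558% lower. The median difference was -3.77 points over the list and 2.19 points over all genes, and 20 of the 41 lay above 0.

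The widest differences in that list were those of IFI44L (37.1 ± 27.8% against 78.1 ± 24.2%, 1 site), the transcription factor gene IRF5 (66.5 ± 23.7% against 26.7 ± 22.4%, 26 sites), LGALS3BP (73.9 ± 28.5% against 34.6 ± 21.4%, 1 site) and IFI27 (65.5 ± 27.1% against 26.9 ± 31.9%, 9 sites). In these genes the cows spread within their groups by 21 to 32 points, and in none of the 41 did the groups stand apart (over all genes, 2.61% with subfertile cows higher and 1.15% lower). The receptor gene IFNAR1 had 62.1 ± 25.6% against 85.0 ± 13.4% over 6 sites.

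Of 25 marker genes of blood cells, 15 had a value in all cows and 0 passed limma's test over all genes, while 8 (53.3%, against 39.7% of all genes) had an unadjusted p under 0.05, 2 higher and 6 lower. These p-values, too, come from sites chosen on the same contrast. The groups stood apart at NKG7 of natural killer cells (78.0 ± 6.14% against 38.6 ± 21.5%) and, in the other direction, at the neutrophil gene MPO (51.7 ± 27.1% against 87.3 ± 6.84%), each with 1 site. Markers of 1 cell type had means in both directions: of the 5 natural killer cell genes tested, NKG7, NCR1 and PRF1 had higher means in subfertile cows, while GZMB (49.0 ± 21.7% against 86.5 ± 3.73%, 14 sites) and KLRD1 (39.0 ± 7.89% against 52.5 ± 16.6%, 3 sites) had lower ones. The cell makeup of the blood was not measured, the deposited sites cannot check it, and its part in the levels of the interferon sites was not tested.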

How the data were processed

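Per the labels' protocols, DNA from 1 mL of blood per cow was converted with TET2, T4-BGT and APOBEC3A, which reads methylated and hydroxymethylated cytosines alike. fastp 0.23.1 and ChIPseeker 1.32.1, with Bismark, DRAGEN and the build ARS-UCD1.2, are listed in the submitters' processing notes. For the read filters and the test behind each q-value, the methods were not given in the sources used here. Values deposited are the percent of methylated calls per cow and site, and their group means (0 means differed from the cows' mean by over 0.0001 points). Per the file headers, the authors also deposited each site's p-value and q-value, a signed difference and a distance to the start of transcription, both read here as a score with its own unit (points, bases). Depth is unknown, so no read minimum, interval or floor could be set.

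Sites were taken by nearest gene symbol, and the members and lists were chosen with earlier results of these data known. Each cow's mean over a set of sites is its value. A site separates the groups when the lowest cow of 1 group lies above the highest of the other. Within-cow differences were tested by exact two-sided sign-flip permutation with Benjamini-Hochberg adjustment. Gene means were compared with limma 3.58.1 (R 4.3.3) after taking (percent + 5)/(100 − percent + 5) to the log2 scale, since no read counts allow a model on reads, with the group as the only term. The permutation test and the limma fit were tested on simulated data with known shifts, where limma missed many of the smaller ones. The replicate is the cow. All 8 genes are named, with their sites of largest and smallest difference, the 5 genes nearest in level and 4 pathway genes by size of difference. NKG7, MPO, IFNAR1 and the 4 further interferon genes were named after their values were seen. No sequence is printed, since no genome was used here.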

Additional observations from a re-analysis of the deposited data

Results flagged for a closer look

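Of 72 sets of cows examined, each 1 group at 1 gene, region or named site, 11 had a cow whose gap to its nearest neighbour passed Dixon's 95% value. Chance flags about 1 in 20 when sets are fixed in advance and values are normally distributed. Here some sets were picked from their values and many values lie at 0 or 100%, so the count cannot be set against that rate. Several of the 11 also share sites and the same cow. Subfertile cow 4 accounts for 4 of them besides the promoter mean of the cluster: 58.7% over all LOC523244 sites (others 84.0 to 88.5%), 42.1% over the LOC523244 promoter (others 86.6 to 97.9%), 27.8% at the LOC523244 site at 22,652,246 (others 73.7 to 93.8%), and 49.2% at both strands of the CpG at 22,528,572 (others 96.4 to 100%). Over all promoter sites of chromosome 8 it had 70.5% (others 85.2 to 91.4%). Subfertile cow 1 had 76.1% over the IFNE sites (others 81.2 to 82.8%), a set that includes 4 sites at which it was listed at 0. Fertile cow 4 had 39.9% over all interferon sites (others 42.2 to 42.6%) and 38.4% over those of chromosome 8 (others 40.5 to 41.6%), a gap of about 2 points. In groups where every other cow was equal, subfertile cow 6 had 93.8% at the IFNT2 site at 22,621,328 and subfertile cow 2 had 83.3% at the IFNT site at 19,972 (others 100%), and fertile cow 1 had 50% at the LOC781948 site at 22,827,773 (others 0).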

How the results depend on the processing

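Keeping sites with a deposited difference of at least 40 points gave cluster levels of 88.2% and 39.3% in subfertile and fertile cows, the median over sites gave 90.4% in subfertile cows, and leaving out the scaffold, added after the data were seen, gave 40.8% in fertile cows. Leaving out single cows gave 82.8 to 84.3% and 41.8 to 42.4%. With 1 strand per CpG, 61 of 86 sites separated the groups (1.89% of all deposited sites so reduced), and without single cows 97 to 110 of 137 (2.72 to 3.08% of all deposited sites). Promoter minus distal, small and not called, had the other sign with promoter sites within 1 kb (-0.29 points), complete sites (-0.57), the median (-1.51), fertile cows alone (-0.76), and in IFNE (-6.19), IFNT3 (-4.25) and IFN-tau-c1 (-5.10) alone. It was 4.03 with 1 strand per CpG, and -0.12 to 1.76 without single cows. Between copies 9 to 12 pairs passed without single cows, and 0 in subfertile or in fertile cows alone, where the smallest adjusted p was 0.0597 and 0.0656. On plain percent values 1 of the 41 pathway genes, IFI6, passed limma (adjusted p 0.0432), as did 298 of all 12,002 genes. On the log scale 0 pathway genes passed when any single cow was left out, where 14 to 185 of all genes did. The filter of at least 40 points selects for a wider gap between the groups by its own rule. The cause of the other changes was not tested. Of 64 gene levels under other site sets, 44 stayed within 1 SD and 20 moved further. Leaving out 1 of 6 cows cannot move a mean that far. No paired analysis was possible because the cows are different animals whose numbers follow accession order and pair nothing. A coverage minimum could not be set because the table holds no reads.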
